A study of Homo sapiens with 16 samples.

Results

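The comparison described here sets 4 arrays of ME180 cells after 3 h in 10 µM all-trans retinoic acid (ATRA) against 4 arrays after 1 h at the same dose, 8 of the 16 arrays of a time course. A gene was tested where 4 or more of the 16 arrays had a log2 intensity of 6 or above, which gave 12467 genes and probes out of 47230 probes. ME180 is a human line from an epidermoid carcinoma of the cervix, taken from a metastasis in the omentum, and was grown in IMDM medium with 10% fetal bovine serum. The other arrays are 4 after 6 h in 10 µM ATRA and 4 given the DMSO vehicle, for which the labels name no time. All are cultures of 1 cell line, and no vehicle array is matched to 1 h or to 3 h, so time in ATRA and time since handling of the cells cannot be told apart. Nothing in the labels says that replicates are separate cultures, so p-values measure the spread between arrays, which may be technical.

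ATRA is a vitamin A metabolite. It binds retinoic acid receptors, which sit on DNA with retinoid X receptors and switch on target genes, among them CYP26 enzymes that break ATRA down. Immediate-early genes are a separate class: they are transcribed from ready promoters within minutes of a stimulus, encode short-lived mRNAs and include transcription factors of the AP-1, EGR and NR4A families. Their products and feedback inhibitors then switch the same genes off, so a comparison of 1 h with 3 h asks which early transcripts had already declined and which later ones had appeared.

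The 4 arrays numbered replicate 1 differed from the others in level at 6590 of the 12467 genes and probes (52.9%), by a median of 0.436 on the log2 scale, and were treated as an array set with 1 array of each group. The 6 h arrays, which share the fit's estimate of spread, were widely spread at genes such as CYP26A1 and IFIT2, with replicates 2 and 4 low and replicates 1 and 3 high. At CYP26A1 replicates 2 and 4 read 4.53 and 5.45, below the vehicle arrays at 7.26 to 8.83, and the 6 h labels were kept as given. All 6 epithelial markers with a listed probe were bright in the 8 arrays, KRT5 between 13.60 and 14.14 and EPCAM between 11.18 and 12.21; KRT6A, KRT17 and TP63 were not analysed here. Of 13 markers of other cell types, 9 lay under log2 6 in all 8 arrays, among them PTPRC, PECAM1, COL1A2, COL3A1 and MLANA. Another fibroblast marker, COL1A1, read between 5.88 and 7.18 and reached log2 6 in 7 of the 8 arrays. The linear intensities of the 13 summed to between 427 and 514 at 1 h and between 532 and 834 at 3 h. The endothelial cadherin CDH5, 1 of these markers, read 4.56, 4.46, 5.19 and 6.03 at 1 h and 6.90, 8.29, 4.90 and 8.04 at 3 h (a difference of 1.97, adjusted p = 0.340 in limma). VWF, also endothelial, averaged 6.17 ± 0.18 and 7.04 ± 0.17 without overlap (0.87, adjusted p = 0.329, and 0.0664 without the 6 h arrays). The part of these markers in the results below was not tested.

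Between 1 h and 3 h of ATRA, 82 genes and probes changed, 0.658% of those tested, at an adjusted p under 0.05. The falls were more numerous and larger. At 3 h 55 were lower (0.441%) and 27 were higher (0.217%). The median fall was -1.62 on the log2 scale and the median rise 0.89. Of the falls 46 were over 2-fold and 18 over 4-fold; of the rises 8 were over 2-fold and 0 over 4-fold. All 4 arrays at 3 h lay below all 4 at 1 h for 40 of the falls, and above them for 18 of the rises, against 1.37% and 1.84% of everything tested. The median change over all genes tested was -0.001. Without the 6 h arrays the counts were nearly even, with 104 higher (0.834%) and 110 lower (0.882%). Rises over 4-fold then passed, among them GCNT3 (2.67), OAS1 (2.43), IFIT2 (2.12) and TGFB3 (2.04).

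**Figure D1:**
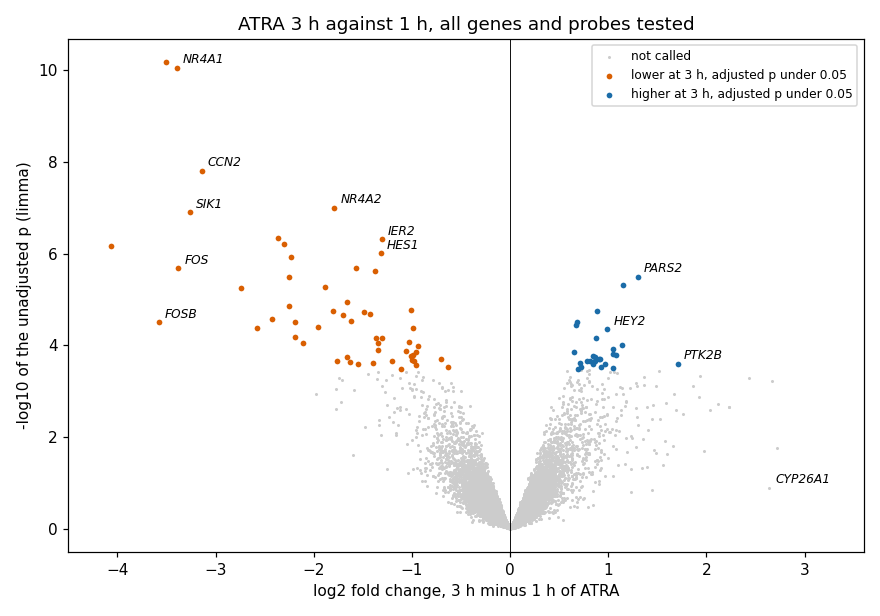
Each point is 1 of the 12467 genes and probes tested. The x axis is the log2 fold change from 1 h to 3 h of ATRA and the y axis is -log10 of the unadjusted limma p; colours mark an adjusted p under 0.05. The 55 falls reach further from 0 than the 27 rises, and CYP26A1 stands far to the right without passing the test.

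The number of calls depended on which arrays were used. It was 214 without the 6 h arrays (1.72% of those tested; 104 or 0.834% higher and 110 or 0.882% lower) and all 82 were among them. With replicates 2 to 4 of every group alone it was 18 (0.144%), of which 17 were falls (0.136%), and PARS2 was the 1 rise (0.00802%). Leaving out 1 array gave 31, 41 or 30 calls without 1 h replicate 1, 2 or 4, 46 or 36 without 3 h replicate 1 or 4, 53 or 52 without DMSO replicate 3 or 4, and 158 without 6 h replicate 2. Of 46 calls named under the selection rule, 20 held whichever array was left out, 20 without the array set term and 14 in replicates 2 to 4 alone.

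Several subunits of AP-1 fell. AP-1 is a dimer of FOS, JUN or ATF proteins that binds DNA in response to growth and stress signals. FOSB, FOS, ATF3, JUNB and JUN fell, 5 of the 11 AP-1 and small MAF genes tested of 14 listed. No member rose, also at an unadjusted p under 0.05, which 10.2% of all genes tested had in either direction. FOSL1, FOSL2, JUND, MAFG, MAFF and JDP2 changed by -0.03, 0.04, -0.27, 0.12, -0.66 and -0.76 and were not called. The list's median change was -0.76.

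FOSB read 10.76, 10.41, 12.70 and 13.68 in replicates 1 to 4 at 1 h and 7.64, 9.70, 7.30 and 8.60 at 3 h. Every 3 h array lay below every 1 h array, and the mean dropped from 11.89 ± 1.56 to 8.31 ± 1.08 (SD, n = 4 each), a log2 change of -3.58 (SE 0.60, adjusted p = 0.0123 in limma). The vehicle arrays lay between 6.00 and 6.37, so FOSB at 3 h still stood above them. Its call was lost without 3 h replicate 1 (adjusted p = 0.0506).

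FOS, the partner of JUN in the classical AP-1 dimer, read 10.91, 10.84, 10.54 and 11.56 at 1 h and 7.06, 8.08, 7.36 and 7.81 at 3 h. The groups were more than 2 log2 units apart, a change of -3.38 (SE 0.45, adjusted p = 0.00198). The 3 h arrays fell inside the range of the vehicle arrays, 5.73 to 8.69. ATF3, a stress-induced member of the ATF branch, read 10.54, 10.91, 12.77 and 12.53 at 1 h and 8.20, 9.36, 8.77 and 9.44 at 3 h (-2.74, SE 0.40, adjusted p = 0.00361). JUNB, a JUN relative that often restrains JUN, read 10.09, 9.76, 10.19 and 10.73 at 1 h and 7.33, 8.23, 7.80 and 8.19 at 3 h, which is -2.30 (SE 0.28, adjusted p = 0.000963). Its 3 h arrays all lay below the vehicle arrays, 8.27 to 8.46, and the groups did not overlap for either gene.

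JUN itself read 9.62, 11.07, 11.31 and 11.67 at 1 h and 8.44, 10.30, 9.05 and 9.67 at 3 h. Here the groups overlapped, because replicate 1 lay lower at both times. The change of -1.55 (SE 0.32, adjusted p = 0.0433) was lost when any of 12 arrays was left out.

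Some EGR, NR4A and IER genes fell as well. NR4A1, NR4A2, EGR1 and IER2 fell, 4 of 10 tested, and all 10 differences were below 0 with a median of -0.60. The 10 include SRF, MYC and MCL1. Taken with the AP-1 list, 9 of 21 genes fell (42.9%, against 0.441% of all genes tested) and 19 of 21 differences were negative. This count was 10 without the 6 h arrays, 7 in replicates 2 to 4 alone, and between 7 and 9 whichever array was left out. Both lists were chosen with earlier results of these data known, so the shares describe these arrays and are not a test.

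NR4A1, an orphan nuclear receptor, read 7.88, 7.84, 8.74 and 8.63 at 1 h and 4.98, 4.65, 4.56 and 5.31 at 3 h. All 3 h arrays were under log2 6, taken here as the floor, so NR4A1 was at least 4.83-fold lower at 3 h (fitted change -3.40, SE 0.21, adjusted p = 5.39e-07). The vehicle arrays, 4.36 to 4.47, were under the floor too, as were the 6 h arrays. NR4A1 thus passed the filter only through its 1 h arrays, and could enter the test only as a gene high at 1 h. It is among the falls counted above. NR4A2, its close relative, read 7.90, 8.25, 8.45 and 9.01 at 1 h and 6.74, 6.76, 6.68 and 6.27 at 3 h. No array overlapped, and the change was -1.79 (SE 0.19, adjusted p = 0.000307).

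EGR1, a zinc finger factor of the serum response, read 12.20, 13.67, 12.60 and 13.26 at 1 h and 9.11, 11.36, 10.69 and 10.89 at 3 h. The groups did not overlap and the change was -2.42 (SE 0.40, adjusted p = 0.0118), but replicate 1 was the lowest array at both times and without the array set term the adjusted p was 0.534. IER2, a nuclear protein of the early growth response, moved less, with little spread. It read 8.47, 8.65, 8.71 and 8.56 at 1 h and 7.21, 7.50, 7.36 and 7.11 at 3 h (-1.31, SE 0.15, adjusted p = 0.000858).

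**Figure D2:**
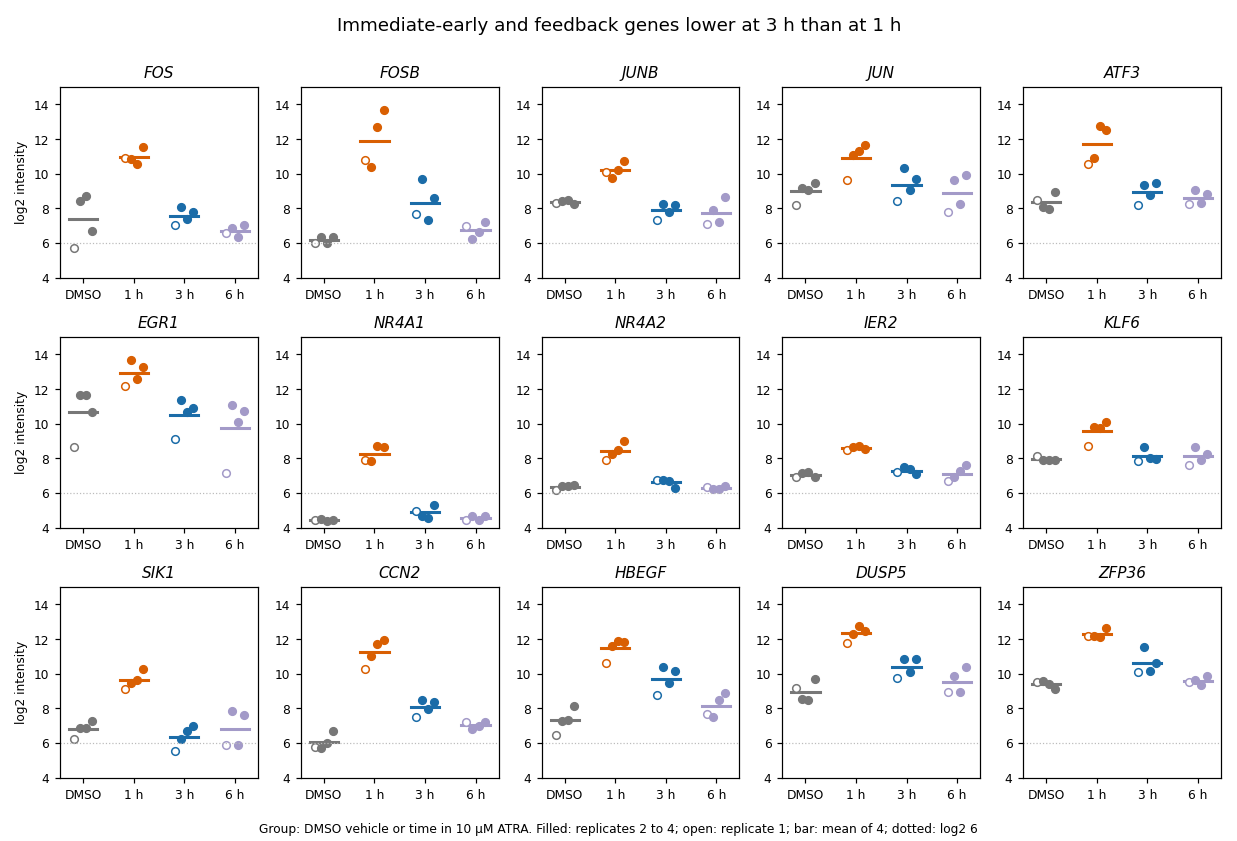
Log2 intensity of 15 immediate-early and feedback genes in the 4 DMSO arrays and the 4 arrays at each of 1, 3 and 6 h of ATRA. Points are arrays (open for replicate 1), bars are means of 4 and the dotted line is log2 6. The 1 h arrays have the highest mean for each gene, and the 3 h arrays of FOS, NR4A1 and SIK1 are back near the vehicle level while those of FOSB, CCN2 and HBEGF are not.

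Promoters of EGR1, RND3 and PPP1R15A are shown because they hold the motifs of the factors best known for driving immediate-early genes. The serum response factor binds the CArG box, found in 1.29% of 27305 RefSeq promoters of 300 bases (250 before and 50 after the start) and 1.10% of 7924 promoters of genes tested, and in 2 of the 42 falling genes with a promoter in the table, EGR1 and RND3. CREB and ATF dimers bind TGACGTCA, found in 1.98%, in 3.36% and in 1 of 42, PPP1R15A. Both strands were searched, neither motif was found in the 19 rising genes, and a match is a description of letters only. The 250 bases before each start follow, in GRCh38.p14, with the motif in capitals: 2 CArG boxes at 105 and 83 bases before the EGR1 start (chr5:138465229-138465478, plus strand), 1 at 72 bases before RND3 (chr2:150487696-150487945, minus strand), and TGACGTCA at 58 bases before PPP1R15A (chr19:48872171-48872420, plus strand).
EGR1: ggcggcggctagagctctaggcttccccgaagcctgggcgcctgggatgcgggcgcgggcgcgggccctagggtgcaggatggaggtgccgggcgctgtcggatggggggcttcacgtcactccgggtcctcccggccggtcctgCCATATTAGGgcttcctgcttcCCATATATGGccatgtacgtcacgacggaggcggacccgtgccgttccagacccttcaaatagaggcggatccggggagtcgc
RND3: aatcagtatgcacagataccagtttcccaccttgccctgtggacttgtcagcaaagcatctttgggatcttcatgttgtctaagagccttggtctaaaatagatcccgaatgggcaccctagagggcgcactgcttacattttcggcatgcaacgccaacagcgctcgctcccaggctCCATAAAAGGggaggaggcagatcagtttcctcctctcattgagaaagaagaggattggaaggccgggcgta
PPP1R15A: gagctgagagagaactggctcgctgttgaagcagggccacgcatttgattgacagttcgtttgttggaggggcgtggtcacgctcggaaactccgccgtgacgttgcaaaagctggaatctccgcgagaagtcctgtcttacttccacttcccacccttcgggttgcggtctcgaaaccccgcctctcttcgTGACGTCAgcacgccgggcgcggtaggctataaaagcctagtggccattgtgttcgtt
RND3, which lowers actin contractility and was chosen for its promoter after its values were seen, read 12.47, 12.15, 11.60 and 12.60 at 1 h and 11.13, 10.93, 10.27 and 9.68 at 3 h (-1.70, SE 0.28, adjusted p = 0.0100). Of the other motifs, TGANTCA, bound by AP-1, was in 4.76% of the falling and 5.26% of the rising genes against 4.47% of the genes tested, and the NF-kappaB site was in 19.0%, 10.5% and 13.1%. The retinoic acid response element with a spacer of 5 bases was in 0 of either group and in 0.0379% of the genes tested.

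Kinase signalling to CREB, the cAMP-responsive transcription factor, was represented by 5 tested genes of 11, of which SIK1, RASD1 and PKIA fell and 0 rose (1 at an unadjusted p under 0.05). For this list and those below, the shares over everything tested were 0.441% lower and 0.217% higher. SIK1, a kinase that shuts CREB coactivators out of the nucleus, read 9.12, 9.48, 9.62 and 10.27 at 1 h and 5.54, 6.21, 6.71 and 6.99 at 3 h. The change of -3.26 (SE 0.34, adjusted p = 0.000308) took it to the range of the vehicle arrays, 6.23 to 7.27, or just below. RASD1, a small GTPase of the Ras family, read 10.41, 9.95, 9.99 and 10.37 at 1 h and 7.09, 8.39, 8.81 and 7.43 at 3 h (-2.25, SE 0.31, adjusted p = 0.00251). PKIA, an inhibitor of protein kinase A, followed another course: its 1 h arrays, 7.45 to 8.15, lay near the vehicle arrays, 7.67 to 8.28, and the 3 h arrays fell below both, 6.47 to 6.97 (-1.06, SE 0.21, adjusted p = 0.0331). Leaving out any of 6 arrays ended the PKIA call.

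Among targets of YAP and the serum response factor 2 of 12 tested genes fell, CCN2 and RHOB, and the list's median was -0.10. CCN2, a secreted matrix protein and a standard YAP target, read 10.25, 10.99, 11.73 and 11.92 at 1 h and 7.52, 8.47, 7.99 and 8.37 at 3 h. The change was -3.14 (SE 0.28, adjusted p = 6.46e-05), and every 3 h array was still above the vehicle arrays, 5.71 to 6.70. RHOB, an early gene with a short-lived mRNA, read 8.96, 8.86, 9.39 and 9.45 at 1 h and 7.41, 7.37, 7.87 and 7.54 at 3 h (-1.62, SE 0.27, adjusted p = 0.0123). Its 3 h arrays lay at or below the lowest vehicle array, 7.87.

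Of 11 phosphatases and feedback inhibitors of MAP kinase signalling tested, DUSP5 and ERRFI1 fell, and the list's median was -0.03. DUSP5, a nuclear phosphatase of ERK, read 11.79, 12.28, 12.77 and 12.49 at 1 h and 9.75, 10.84, 10.09 and 10.83 at 3 h (-1.95, SE 0.34, adjusted p = 0.0143). ERRFI1, an inhibitor of the EGF receptor, averaged 11.38 ± 0.59 at 1 h and 9.62 ± 0.83 at 3 h, where replicate 2 at 10.86 overlapped the 1 h arrays (-1.76, SE 0.36, adjusted p = 0.0409). The call was lost when any of 3 arrays was left out for DUSP5 (1 h replicate 1 or 4, or 3 h replicate 1) and any of 12 for ERRFI1. The list's count of falls was between 0 and 3 with 1 array left out. SPRY1, an inhibitor in the same list named after its values were seen, averaged 5.31 ± 0.33 at 1 h, under the floor. At 3 h it averaged 6.27 ± 0.53, higher without overlap (adjusted p = 0.153), and so close to the floor no fold is given. DUSP1, which dephosphorylates p38 and JNK, missed the threshold: it read 13.42, 13.56, 13.39 and 13.80 at 1 h and 11.88, 12.59, 10.58 and 12.24 at 3 h, without overlap, for a difference of -1.72 (SE 0.39, adjusted p = 0.0640). HBEGF, a ligand of the EGF receptor, fell as 1 of 5 EGF family genes tested. It read 10.64, 11.57, 11.91 and 11.80 at 1 h and 8.75, 10.37, 9.44 and 10.16 at 3 h, still above the vehicle arrays at 6.43 to 8.14 (-1.80, SE 0.29, adjusted p = 0.00927, and 0.197 without the array set term).

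All 9 mRNA decay and BTG/TOB genes tested had a negative change, with a median of -0.79, and 2 passed. ZFP36, which binds AU-rich elements and speeds the decay of cytokine mRNAs, read 12.15, 12.15, 12.10 and 12.65 at 1 h and 10.07, 11.54, 10.17 and 10.64 at 3 h (-1.66, SE 0.25, adjusted p = 0.00690). ZC3H12A, an endoribonuclease with the same kind of targets, averaged 8.60 ± 0.76 at 1 h and 6.71 ± 0.87 at 3 h (-1.89, SE 0.27, adjusted p = 0.00361, and 0.330 without the array set term). KLF6, a Krüppel-like factor, fell as 1 of 8 tested KLF genes, from 9.60 ± 0.62 to 8.11 ± 0.37 (-1.49, SE 0.24, adjusted p = 0.00927), and all 8 differences were below 0.

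PTGER4, the EP4 receptor of prostaglandin E2, read 9.90, 10.92, 10.81 and 11.50 at 1 h and 8.32, 8.95, 8.65 and 8.28 at 3 h (-2.24, SE 0.28, adjusted p = 0.00131), 1 of 7 prostaglandin genes tested. EDN2, a vasoactive peptide of the endothelin family that is on no list, fell from 10.67 ± 0.53 to 8.56 ± 0.66 (-2.11, SE 0.39, adjusted p = 0.0255), with 3 h replicate 4 at 9.55 above the others. That call was lost when any of 7 arrays was left out. BHLHE40, a repressor of the circadian clock that is also on the list of genes induced by retinoic acid, read 10.71, 10.53, 11.32 and 12.15 at 1 h and 7.96, 9.54, 9.03 and 9.17 at 3 h (-2.25, SE 0.35, adjusted p = 0.00816). The clock's activator BMAL1 went the other way, from 7.02 ± 0.31 to 7.88 ± 0.50 with overlapping arrays (0.86, SE 0.18, adjusted p = 0.0411), so that 1 of 9 clock genes fell and 1 rose. The BMAL1 call was lost when any of 10 arrays was left out, and its adjusted p was 0.550 without the array set term. HES1, the repressor that Notch induces, fell from 8.90 ± 0.34 to 7.58 ± 0.13 (-1.32, SE 0.16, adjusted p = 0.00121) as 1 of 12 Notch genes.

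ANKRD37, a hypoxia-induced ankyrin protein, fell by 1.38 on the log2 scale (SE 0.18, adjusted p = 0.00210) as 1 of 11 hypoxia and glycolysis genes. PPP1R15A, the phosphatase subunit that ends the integrated stress response, fell from 11.52 ± 0.32 to 10.56 ± 0.32 (-0.96, SE 0.19, adjusted p = 0.0345) as 1 of 9 stress response genes. BAMBI, a decoy receptor of the TGF-beta family, fell from 12.26 ± 0.69 to 11.23 ± 0.71 with overlapping arrays (-1.02, SE 0.19, adjusted p = 0.0245) as 1 of 11. The call of PPP1R15A was lost when any of 9 arrays was left out, and that of BAMBI for any of 5. ID2, an inhibitor of bHLH factors in the same list, averaged 9.41 ± 0.71 and 8.07 ± 0.54 without overlap and missed the threshold (-1.34, SE 0.39, adjusted p = 0.163).

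VAV3, BCL11A and ARID5B, among the largest falls, stood near the vehicle level at 1 h and below it at 3 h. VAV3, a guanine nucleotide exchange factor, read 8.08, 7.78, 7.86 and 8.28 at 1 h and 5.88, 4.83, 6.24 and 4.73 at 3 h, with vehicle arrays at 8.03 to 8.52. The change from 1 h was -2.58 (SE 0.45, adjusted p = 0.0147); in the same fit VAV3 differed from DMSO by -0.30 at 1 h (adjusted p = 0.928) and -2.87 at 3 h (adjusted p = 0.00441). These 3 differences share arrays, here and below. BCL11A, a transcriptional repressor of blood and neural development, read 7.43, 8.76, 8.47 and 9.02 at 1 h and 5.86, 6.14, 7.18 and 5.74 at 3 h (-2.19, SE 0.40, adjusted p = 0.0211); its other probes gave -2.44 and -0.79, the latter without a call. ARID5B, a DNA-binding partner of a histone demethylase, read 10.04, 11.12, 10.27 and 10.97 at 1 h and 8.10, 8.29, 9.0 and 8.25 at 3 h (-2.19, SE 0.37, adjusted p = 0.0123). All 3 calls were lost without 1 h replicate 1, without 1 h replicate 4 and without 3 h replicate 4, with adjusted p up to 0.102.

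The squamous and developmental factors showed 1 fall and 1 rise among 18 tested, with a median of -0.25 (-0.24 with genes under the floor set at their bound). DLX5, a homeobox factor, read 6.80, 6.50, 6.18 and 7.31 at 1 h and was under the floor in all 3 h arrays, at least 1.62-fold lower (fitted change -1.63, SE 0.34, adjusted p = 0.0426). Leaving out any of 8 arrays ended that call. Its relative DLX3, a regulator of epidermal differentiation, averaged 9.39 ± 0.36 and 8.27 ± 0.75 and missed the threshold (-1.12, SE 0.30, adjusted p = 0.121). SOX2, a factor of squamous progenitors, read 5.83, 5.75, 5.73 and 6.37 at 1 h and 4.86, 4.93, 5.07 and 4.58 at 3 h, against 7.10 to 8.02 in the vehicle arrays (adjusted p = 0.0522, and 0.0216 without the 6 h arrays); so close to the floor no fold is given. ISL1, a LIM homeobox factor, rose from 7.43 ± 0.22 to 8.12 ± 0.21 (0.69, SE 0.15, adjusted p = 0.0498), with vehicle arrays at 8.46 to 8.74. Its call was lost when any of 14 arrays was left out, and the adjusted p was 0.235 in replicates 2 to 4.

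**Figure D3:**
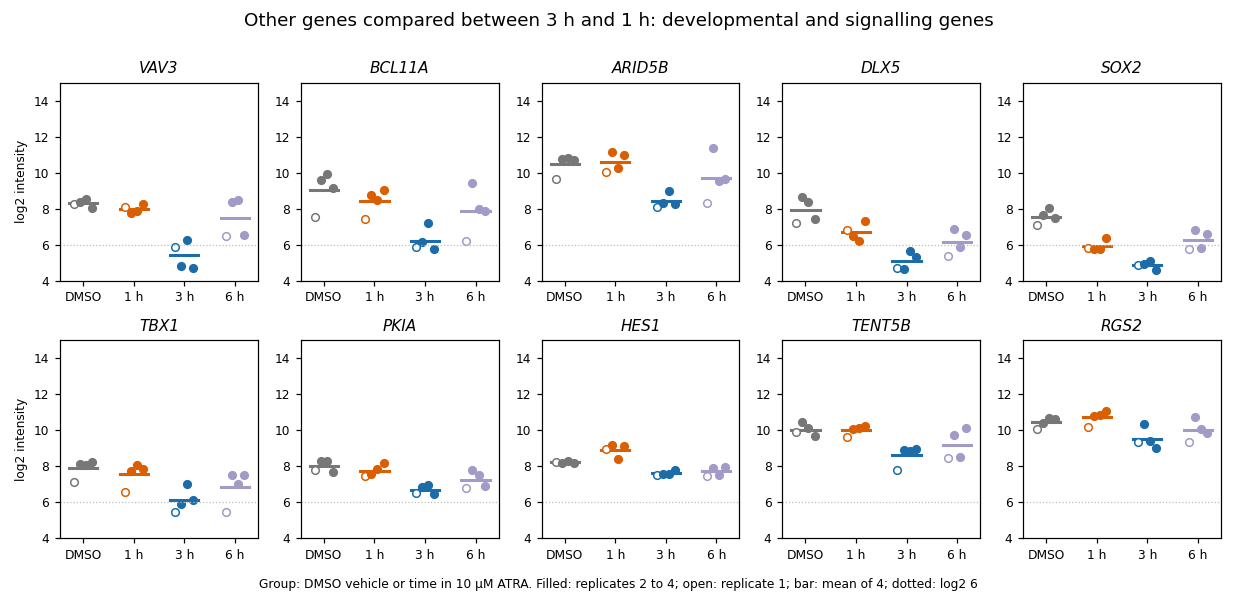
Log2 intensity of 10 developmental and signalling genes in the DMSO arrays and at 1, 3 and 6 h of ATRA, drawn as points per array (open for replicate 1) with the mean of 4 and a dotted line at log2 6. For VAV3, BCL11A, ARID5B and PKIA the 1 h arrays lie near the vehicle arrays and the 3 h arrays below both; the 6 h arrays of VAV3 spread from 6.45 to 8.50.

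Further falls, named after their values were seen, included TBX1, a T-box developmental factor (-1.43, adjusted p = 0.00978), TENT5B, a cytoplasmic poly(A) polymerase (-1.39, adjusted p = 0.0428), HOXC6 (-1.01, adjusted p = 0.0384) and AUTS2 (-1.35, adjusted p = 0.0255). IFFO1, an intermediate filament family protein, fell from 8.52 ± 0.36 to 6.95 ± 0.27 (-1.57, adjusted p = 0.00198). The transcriptional regulators ETS2, CSRNP1 and CITED2 fell too (-1.36, -1.66 and -1.34, adjusted p = 0.0211, 0.0388 and 0.0331). RGS2, which turns off G proteins, fell by 1.20 (adjusted p = 0.0409). LIMK2, a kinase of actin turnover, changed by -1.31 at the probe used (adjusted p = 0.0211) but by -0.31 and -0.43 at its other probes, neither of which passed. Of the falls, 5 were probes without a symbol, as were 4 of the rises; the largest, ILMN_1743199, changed by -4.06.

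In the fit of all 16 arrays the called rises were smaller than the called falls. Of the 16 rises named under the selection rule, PARS2 and ZNF416 kept their call whichever array was left out, against 18 of 30 named falls. PTK2B, the calcium-responsive kinase PYK2, had the largest of these 16 rises. It read 6.42, 6.75, 6.99 and 6.68 at 1 h and 7.74, 8.70, 8.10 and 9.12 at 3 h, with no overlap (1.71, SE 0.36, adjusted p = 0.0430). The call was lost when any of 11 arrays was left out, and was 0.123 as an adjusted p in replicates 2 to 4. In the fit of every probe, further probes of OAS1 (2.73) and RUBCNL (2.40) rose more and passed (adjusted p = 0.0407 and 0.00459 in limma). Both genes were named after their values were seen, and at the probe used neither passed.

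PARS2, the mitochondrial prolyl-tRNA synthetase, read 5.59, 5.72, 5.33 and 4.92 at 1 h, all under the floor, and 6.76, 6.59, 6.47 and 6.94 at 3 h. It was at least 1.61-fold higher at 3 h (fitted change 1.30, SE 0.18, adjusted p = 0.00251), and its 3 h arrays lay within the vehicle range of 6.23 to 7.04. At 1 h it was at least 1.43-fold lower than in DMSO (adjusted p = 0.00322). HEY2, a repressor related to HES1, rose from 7.10 ± 0.26 to 8.09 ± 0.34 (0.99, SE 0.17, adjusted p = 0.0150), so these relatives moved in opposite directions. The HEY2 call was lost when any of 5 arrays was left out, and its adjusted p was 0.148 in replicates 2 to 4.

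PAQR7, a membrane progestin receptor, rose from 7.95 ± 0.42 to 9.0 ± 0.32 (1.05, SE 0.22, adjusted p = 0.0488). ADORA2B, the low-affinity adenosine receptor, read 10.84, 10.90, 11.01 and 10.51 at 1 h and 11.47, 12.05, 11.44 and 11.98 at 3 h (0.92, SE 0.20, adjusted p = 0.0466). Each call was lost when any of 12 arrays was left out. The 1 h arrays of ADORA2B spanned the vehicle range of 10.74 to 10.94, and every 3 h array lay above both. CRISPLD2, a secreted protein, STK10, a kinase of cell adhesion, and MAPKBP1, a JNK-binding scaffold, rose by 0.97, 0.86 and 0.85 (adjusted p = 0.0432, 0.0391 and 0.0430), each with overlapping arrays because replicate 1 lay lower at both times.

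**Figure D4:**
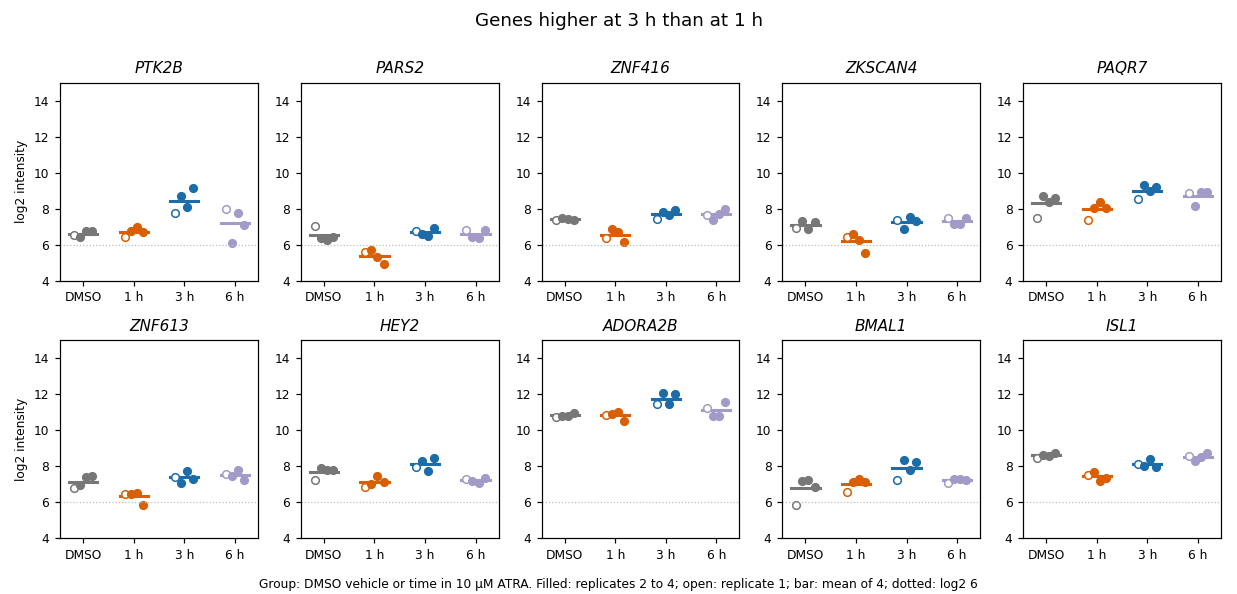
Log2 intensity of 10 genes that rose, in the DMSO arrays and at 1, 3 and 6 h of ATRA, as points per array (open for replicate 1) with the mean of 4 and a dotted line at log2 6. PARS2, ZNF416, ZKSCAN4, ZNF613 and ISL1 dip at 1 h below the vehicle arrays, whereas PTK2B and ADORA2B leave the vehicle level at 3 h.

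Zinc finger genes were frequent among the rises. Of 237 tested genes named ZNF, ZSCAN or ZKSCAN, a grouping made after the values were seen, 9 rose (3.80%, against 0.217% of all tested) and ZNF618 fell; their median change was 0.16, or 0.08 with the 19 genes under the floor at their bound. The count of 9 was between 2 and 11 with 1 array left out, 2 without the array set term and 1 in the 1 h and 3 h arrays alone. Most encode Krüppel-type DNA-binding repressors. ZNF416 read 6.39, 6.88, 6.70 and 6.17 at 1 h and 7.41, 7.81, 7.64 and 7.91 at 3 h, with vehicle arrays at 7.35 to 7.50 (1.16, SE 0.16, adjusted p = 0.00359). ZKSCAN4, ZNF613, ZNF597 and ZNF564 rose by between 0.88 and 1.08, and ZNF2, under the floor at 1 h, was at least 1.14-fold higher. The dip at 1 h passed the test against DMSO for ZNF416 (-0.88, adjusted p = 0.0140) and ZNF564 (-0.81, adjusted p = 0.0199). It also passed for ZNF2, under the floor at 1 h and at least 1.10-fold lower than in DMSO (adjusted p = 0.0378). ZKSCAN4, ZNF613 and ZNF597 did not pass (adjusted p = 0.0712, 0.0839 and 0.726). These genes were picked with 1 h arrays below 3 h arrays, and the same 1 h arrays enter here. The dip is thus partly built in, and the 0.168% of all genes tested that passed downward is not a like comparison. ZNF746, ZNF57 and ZNF343 rose by 0.67, 0.65 and 0.72. In replicates 2 to 4 alone the adjusted p of these 9 genes lay between 0.0614 and 0.331.

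At the probe used for each, 0 of 11 genes of retinoid metabolism and transport changed in limma, and 0 had an unadjusted p under 0.05. Of these differences 10 of 11 were above 0, with a median of 0.33. CYP26A1 and CYP26B1 were the members that differed by more than 1. CYP26A1, the main ATRA hydroxylase, read 10.77, 7.51, 11.81 and 12.14 at 1 h and 12.99, 14.02, 12.18 and 13.58 at 3 h. All 3 h arrays lay above all 1 h arrays, by 2.64 on average (SE 1.65, adjusted p = 0.655). Its 6 h arrays read 12.95, 4.53, 13.13 and 5.45, and without them the SE was 0.85 and the adjusted p 0.180. The other CYP26A1 probes differed by more, 3.15 and 2.94, and did not pass either (adjusted p = 0.321 and 0.384 in limma on every probe). DHRS3, which reduces retinal to retinol, read 11.42, 10.73, 11.57 and 11.45 at 1 h and 11.95, 11.77, 12.08 and 12.22 at 3 h, again without overlap (0.71, SE 0.53, adjusted p = 0.714, and 0.0837 without the 6 h arrays).

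CYP26B1, another ATRA hydroxylase, read 9.74, 9.07, 11.42 and 11.25 at 1 h and 11.11, 12.74, 11.00 and 12.41 at 3 h. Here the groups overlapped (1.45, SE 0.94, adjusted p = 0.673). Of 7 tested retinoid receptors and coregulators 0 passed in limma (2 higher and 2 lower at an unadjusted p under 0.05), and RARB, the classical receptor target, had 3 probes of which none passed the filter, with a highest value of 5.79 in the 8 arrays. In the list of genes induced by retinoic acid, BHLHE40 fell and 0 of 11 rose (2 at an unadjusted p under 0.05), with a median of 0.48. GPRC5A, an orphan receptor induced by retinoic acid and named after its values were seen, averaged 10.24 ± 0.30 and 11.17 ± 0.36 without overlap (0.93, adjusted p = 0.340).

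All arrays of CCL20, IL1B, IL36G and F3 at 1 h and 3 h lay above their vehicle arrays, by varying margins. In limma 0 of 9 cytokines and chemokines changed (2 higher and 1 lower at an unadjusted p under 0.05; median 0.54), nor did any of 12 NF-kappaB genes (2 and 2; median 0.17). CCL20, a chemokine for lymphocytes and dendritic cells, read 11.16, 10.61, 12.49 and 11.84 at 1 h and 12.70, 13.56, 11.32 and 13.44 at 3 h, against 5.19 to 7.63 in the vehicle arrays (1.23, SE 0.83, adjusted p = 0.688). IL1B averaged 10.08 ± 1.20 and 10.87 ± 1.31 (adjusted p = 0.801), with vehicle arrays at 6.39 to 7.51. Its lowest 1 h array read 8.41, and at 1 h it did not pass against DMSO (adjusted p = 0.0759). IL36G, which signals to and from keratinocytes, averaged 10.90 ± 0.63 and 11.78 ± 0.82 (adjusted p = 0.416), with vehicle arrays at 8.36 to 8.68. F3, tissue factor, was 10.43 ± 0.27 and 10.57 ± 0.39 (0.13, SE 0.49, adjusted p = 0.954), with vehicle arrays between 5.93 and 8.56.

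**Figure D5:**
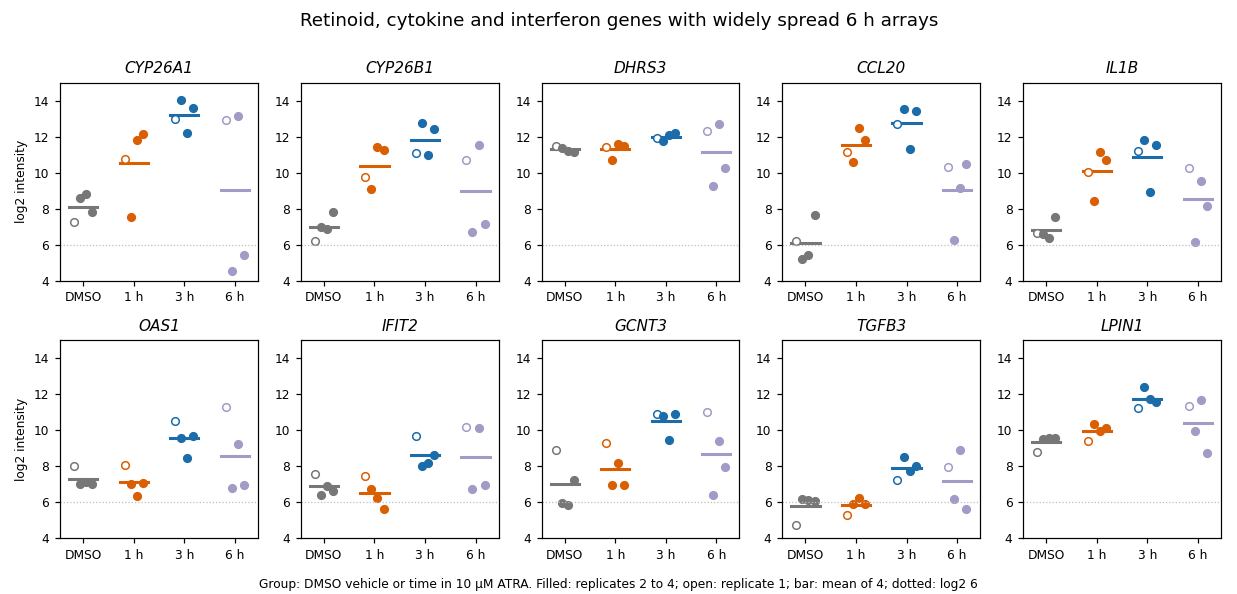
Log2 intensity of 10 retinoid, cytokine, interferon and metabolic genes in the DMSO arrays and at 1, 3 and 6 h of ATRA, as points per array (open for replicate 1) with the mean of 4 and a dotted line at log2 6. The 3 h arrays of CYP26A1, DHRS3, OAS1, IFIT2, GCNT3, TGFB3 and LPIN1 lie above all 1 h arrays, and their 6 h arrays split into replicates 1 and 3 against replicates 2 and 4.

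Without the 6 h arrays a further set passed, named here after its values were seen. OAS1, an interferon-induced sensor of double-stranded RNA, read 8.06, 6.99, 6.35 and 7.08 at 1 h and 10.48, 9.57, 8.47 and 9.69 at 3 h, a difference of 2.43 with an adjusted p of 0.0605 over 16 arrays and 0.000664 without the 6 h arrays. IFIT2, another interferon-induced gene, averaged 6.50 ± 0.76 and 8.62 ± 0.74 (2.12, adjusted p = 0.117 and 0.000837). They were the 2 of 12 interferon genes to pass in this way. Over all 16 arrays 0 of 12 did in limma at the probe used, with 2 at an unadjusted p under 0.05. Another OAS1 probe differed by 2.73 over 16 arrays and passed (adjusted p = 0.0407 in limma on every probe).

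GCNT3, a mucin-type glycosyltransferase, was higher by 2.67 (adjusted p = 0.0643, and 0.0173 without the 6 h arrays), and the growth factor TGFB3 by 2.04 (0.130 and 0.000275). LPIN1 and PLIN2, of lipid synthesis and lipid droplets, were higher by 1.76 (0.145 and 0.000499) and 1.86 (0.0706 and 0.00815). PTGS2, the inducible cyclooxygenase, was lower, at 11.37 ± 0.69 and 9.39 ± 0.80 (-1.98, adjusted p = 0.0851 and 0.0252), as was the vasoconstrictor peptide EDN1 (-1.73, 0.109 and 0.0384).

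Structural and housekeeping lists had no member past the threshold in limma. With 0.658% of everything tested called, a count of 0 in so short a list, here or above, says little about its members. The count was 0 of 11 keratins (median 0.06, with 2 at an unadjusted p under 0.05), 0 of 14 cornified envelope genes (median 0.01, with 0) and 0 of 9 simple epithelial and junction genes (median 0.10, with 2). Cell cycle lists gave 0 of 15 S phase genes (median -0.15, with 0), 0 of 16 mitosis genes (median -0.23, with 1), 0 of 9 CDK inhibitor and GADD45 genes (median -0.20, with 1) and 0 of 10 p53 targets (median -0.07, with 1). Of the mitosis genes 15 had a negative difference. Ribosomal proteins and ribosome biogenesis gave 0 of 11 each, with 0 at an unadjusted p under 0.05. The remaining lists gave 0 of 12 apoptosis genes (with 2), 0 of 6 coagulation genes (with 0), 0 of 10 heat shock genes (with 2), 0 of 8 cholesterol synthesis genes (with 0), 0 of 10 Wnt genes (with 1) and 0 of 4 histone and DNA modifiers (with 1). In bulk arrays, fewer cells of a type and less RNA per cell cannot be told apart.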

How the data were processed

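Biotin-labelled cRNA from total RNA of ME180 cells was hybridised to 16 Illumina arrays, per the labels' protocols. The deposited value table holds log2 intensities that the authors had already quantile normalized, as the equal distributions of the arrays show; limma is named in the submitters' processing notes without its role. The log base, the offset and any background correction were not given in the sources used here. Values end at 14.73, and they were read as base 2. Every fold rests on that reading. Another deposited table of non-normalized values served only for its row order, since its 32 value and detection columns match no sample label.

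In that order the values of the replicate 1 arrays stood 1 row too low from row 10570 of 47230 (10572 for the 3 h array taken singly; neither of the 2 probes between was tested). Their correlation with the other arrays across probes was 0.979 before that row, 0.325 after it as deposited and 0.979 once moved up by 1 row, and the moved values were used.

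Differences were tested by moderated linear models, limma 3.58.1 under R 4.3.3, with eBayes and no trend, on all 16 arrays, with the 4 groups and the array set (replicate 1 or not) as a fixed block (11 residual and 3.614 prior degrees of freedom). Tests were two-sided with Benjamini-Hochberg adjustment over 12467 genes and probes, 9651 of them with a symbol, and a threshold of 0.05. The probe with the highest mean stood for a gene. Of the probes, 30113 had 1 symbol, 8 had several and 17109 were not listed in the platform annotation. A gene under log2 6 in all arrays of a group is given a bound, the other group's mean against 6. SDs in the text cover all 4 arrays of a group, array set included, and the number of arrays limits the precision. The script was tested on simulated data.

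Named genes are the 15 largest rises and 15 largest falls past the threshold in which replicates 2 to 4 did not overlap and replicate 1 moved the same way, up to 4 called members of each list, and 18 fixed genes. Others are marked as named after their values were seen; JUN was the fifth called AP-1 gene. The members and the 37 gene lists (517 genes, 473 with a probe and 359 tested) were chosen with earlier results of these data known. Alternatives to the set term, arrays, filter, normalization, probes and test were fitted. Promoter sequences are RefSeq's. Same-numbered arrays did not deviate together beyond the replicate 1 set: r was 0.90 for number 1 and 0.05, 0.102 and -0.126 for numbers 2 to 4, so the numbers were not taken as pairs. Among replicates 2 to 4 alone r was -0.218, -0.306 and -0.427, and each 1 h array matched best a 3 h array of another number. A pairing under other numbers was not tested.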

Additional observations from a re-analysis of the deposited data

Results flagged for a closer look

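Among the named genes, 114 groups of 4 arrays at 1 h or 3 h were examined for an array far from the other 3, and 9 had a gap to the nearest array that exceeded Dixon's critical share of the group's range, where chance gives about 1 in 20 groups. At 3 h, EDN2 in replicate 4 (9.55) lay above the others (8.18 to 8.32), ERRFI1 in replicate 2 (10.86) above 9.15 to 9.28 and ANKRD37 in replicate 4 (7.48) above 6.99 to 7.06. NR4A2 in 3 h replicate 4 (6.27) lay below 6.68 to 6.76, and ID2 in the same array (7.26) below 8.25 to 8.39. At 1 h, ZFP36 in replicate 4 (12.65) lay above 12.10 to 12.15 and SOX2 in replicate 4 (6.37) above 5.73 to 5.83. ZNF613 in 1 h replicate 4 (5.85) lay below 6.44 to 6.52, and MAPKBP1 in 1 h replicate 1 (4.79) below 6.87 to 7.28. Of the 9, 7 were in a replicate 4 array.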

How the results depend on the processing

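The 82 changes (27 higher, 55 lower) became 23 (3 and 20) without the array set term, 54 (15 and 39) from the 1 h and 3 h arrays alone, 214 (104 and 110) without the 6 h arrays, 18 (1 and 17) in replicates 2 to 4 only, 39 (11 and 28) with no filter and 17 (2 and 15) with rows as deposited. With the replicate block there were 63 (12 and 51), although the numbers do not pair the samples. The 8 arrays at 1 h and 3 h with the replicate block, added after seeing the data, gave 11 (2 and 9). Leaving out 1 array gave 30 to 158 changes, 3 to 71 higher and 27 to 87 lower; the arrays that moved the count by over 1.5 times were 1 h replicates 1, 2 and 4 (31, 41 and 30), 3 h replicates 1 and 4 (46 and 36), DMSO replicates 3 and 4 (53 and 52) and 6 h replicate 2 (158). Centring, repeated quantile normalization, a filter at log2 7, every probe, the mean of probes, and trend with robust stayed within 1.5 times. Of the 46 called named genes, 20 kept their call whichever array was left out, 46 without the 6 h arrays, 34 with the replicate block, 20 without the array set term and 14 in replicates 2 to 4. No called gene changed sign. F3, which was not called, changed sign at -0.006 in replicates 2 to 4, and between -0.140 (without 1 h replicate 1) and 0.278 (without 1 h replicate 3) with 1 array left out, also below 0 at -0.039 without 3 h replicate 4; the cause was not tested. Probes near the floor of log2 6 allow only bounds.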
